A study of Caenorhabditis elegans with 4 samples.

Results

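On chromosome II of *Caenorhabditis elegans*, 544 regions were listed as binding sites of tagged DPL-1, of 3192 regions on all 6 nuclear chromosomes. They were chosen by position alone, as every interval of the combined peak list that lies on II, with an interval entered more than once counted as 1 region. The left part of II was sparse. Its left flank, the first 25% of the span covered by peaks, held 71 regions, and the right flank, the last 25%, held 155. The centre between them had nearly the density of the right flank.

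Chromatin immunoprecipitation followed by sequencing (ChIP-seq) had been done with antibodies against GFP on fed first-stage (L1) larvae, hermaphrodites of strain YL448 grown at 20 °C and fixed with 2% formaldehyde. All 4 libraries came from this strain, which carries *unc-119(ed3)* on III and the transgene vrIs83, in which the *ges-1* promoter drives DPL-1 joined to GFP and a triple Flag tag, with the *dpl-1* 3′ UTR and a rescuing *unc-119* copy. The groups were 2 ChIP libraries and 2 input libraries of total chromatin DNA, and the input libraries were not analysed here. No ChIP library of an untagged strain was among the samples. The 3 peak lists used were 1 for each ChIP replicate and 1 for both combined. Nothing in the labels tells whether the replicates were separate cultures, and the lists give no read counts, so the sequencing depth is unknown and the intervals below cover the counting of peaks only.

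DPL-1 belongs to the DP family of transcription factors. DP proteins pair with E2F factors, in the worm chiefly EFL-1, and the pair binds DNA at genes of the cell cycle and, with the retinoblastoma-like protein LIN-35, forms part of the DREAM complex that holds genes repressed. The *ges-1* promoter acts in the intestine, so the lists concern DPL-1 made there and not the native protein in the whole larva. The autosomes of this species have gene-dense centres with little recombination and arms richer in repeats and in fast-evolving gene families. The *dpl-1* gene itself lies on II in RefSeq's gene table of assembly WBcel235. Reads from the *dpl-1* part of the transgene would map to that gene, and whether a listed region lies there was not examined, because the peaks are given on another build, WormBase WS220. For the same reason no gene is assigned to any region here.

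The span of II, between the outermost peaks of the 3 lists, ran from position 564 to 15273782, or 15.3 Mb. The combined list covered 1.04% of it, the 3588 replicate 1 peaks covered 7.84% and the 4535 replicate 2 peaks 8.30%. The first combined region lay at 18859 to 19182 and the last at 15262955 to 15263278, so the regions reached to within 18.3 kb and 10.5 kb of the ends of the span.

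Compared with the other chromosomes pooled, II carried somewhat more combined regions than its length would give. It had 35.6 regions per Mb (95% exact Poisson interval 32.7 to 38.7), which was 1.14 times the density of the other chromosomes together. Taken singly, I (45.8 per Mb) and III (49.0) were denser than II, and IV (29.8), V (21.6) and X (17.6) were less dense. II makes up 15.2% of the span, and its count differed from that share (two-sided exact binomial test, Benjamini-Hochberg adjusted p = 0.0065 over the 6 chromosomes). The test treats neighbouring peaks as independent, which they are not. The 3195 strongest peaks of each replicate, as many as the combined list has, gave 1.15 times the rest in replicate 1 and 1.16 in replicate 2. The whole replicate lists did not show this excess. Replicate 1 had 234.9 peaks per Mb on II (227 to 243), 0.96 times the rest (exact binomial adjusted p = 0.025), and replicate 2 had 297 (288 to 306), 0.99 times the rest (exact binomial adjusted p = 0.55).

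The left flank of II was less dense than the centre and the right flank. The left flank had 18.6 regions per Mb (exact Poisson interval 14.5 to 23.5), the centre, from 25% to 75% of the span, had 41.6 (37.2 to 46.5), and the right flank had 40.6 (34.5 to 47.5). The interval of the left flank lay below both others, and the intervals of the centre and the right flank overlapped over most of their length. In the centre the density was 2.24 times that of the left flank (interval 1.73 to 2.94; exact binomial adjusted p = 3e-10) and 1.03 times that of the right flank (interval 0.84 to 1.25; exact binomial adjusted p = 0.81). These p-values were adjusted over the 12 comparisons of a centre with a flank on the 6 chromosomes. A sparse flank was not particular to II. The centre had 1.97 times the density of the left flank on III and 1.91 times that of the right flank on IV. On V the ratios were 1.94 on the left and 2.36 on the right. These passed, as did the right flanks of I (1.40) and III (1.25). The flanks of X and the left flanks of I and IV did not pass.

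**Figure D1:**
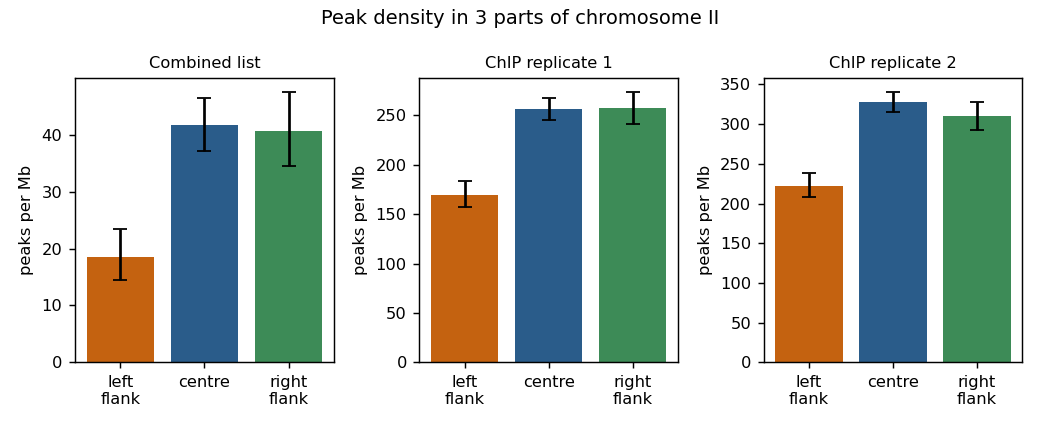
Peaks per Mb in the left flank, the centre and the right flank of chromosome II, in the combined list and in each ChIP replicate list; bars are densities and whiskers are 95% exact Poisson intervals. In each list the left flank is lowest (18.6 per Mb in the combined list), and the other bars are nearly level.

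Of the 544 regions, 318 lay in the centre, which is 58.5% (95% exact binomial interval 54.2 to 62.6; two-sided exact binomial p = 9.2e-05 against 50%). Among the regions of the stronger 50% of the combined list the share was 56.0% and no longer passed (exact binomial p = 0.054). The left flank held 31.4% (25.4 to 37.9) of the 226 regions in the flanks (exact binomial p = 2.3e-08 against 50%). The 50% mark pools a low left flank with a right flank at the level of the centre.

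Both replicate lists had the same low side. Replicate 1 had 649 peaks in the left flank, 1957 in the centre and 982 in the right flank. Replicate 2 had 850, 2501 and 1184 in the same order. In both lists the left flank was the sparsest part, at 170.0 peaks per Mb in replicate 1 (exact Poisson interval 157 to 184) and 223 in replicate 2 (208 to 238). The centre against the right flank had a ratio of 0.996 (interval 0.922 to 1.08) in replicate 1 and of 1.06 (0.985 to 1.13) in replicate 2.

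The left share was lower among strong peaks than among weak ones in both replicate lists. Among peaks that overlap a combined region, the left flank held 31.02% (interval 25.3 to 37.2) of the flank peaks in replicate 1 and 30.6% (24.97 to 36.8) in replicate 2. Nearly every combined region has such a partner, so these 2 shares repeat the 31.4% of the combined list and are no separate measurement. In the whole replicate 1 list the left flank held 35.7% (32.3 to 39.1) in the stronger 50% of peaks and 43.7% (40.3 to 47.1) in the weaker 50%. In replicate 2 it held 36.9% (33.9 to 40.1) in the stronger 50% and 46.3% (43.2 to 49.3) in the weaker 50%. Weak peaks were also fewer on the left, with upper bounds below 50% in both lists. The part of each flank to which reads can be mapped was not analysed here.

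The low density of the left flank was not even along it. When the span was divided into 10 equal steps, the first 3 had 22.3, 17.02 and 17.7 combined regions per Mb, and the other 7 had between 32.7 and 53.7. The highest of the sparse steps, the first, had an exact Poisson interval of 15.4 to 31.1, which overlaps that of the ninth step, with 24.3 to 43.2. The densest step was the sixth, just right of the middle, with 82 regions. Replicate 1 had 144 to 211 peaks per Mb in the first 3 steps and 235 to 282 in the others, and replicate 2 had 206 to 246 in the first 3 and 293 to 356 in the others. The third step straddles the border of the left flank. From 25% to 30% of the span, just beyond it, the combined list still had only 20.95 regions per Mb (exact Poisson interval 11.98 to 34.02), while replicate 1 had 236 peaks per Mb and replicate 2 had 280, near their means over II. The left end itself was not low in the replicate lists. The first 3 windows of 100 kb held 32, 28 and 30 replicate 1 peaks and 36, 33 and 33 replicate 2 peaks, above the means over II of 23.5 in replicate 1 and 29.6 in replicate 2. Those windows held 6, 1 and 4 combined regions, on both sides of the mean of 3.56 over II.

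**Figure D2:**
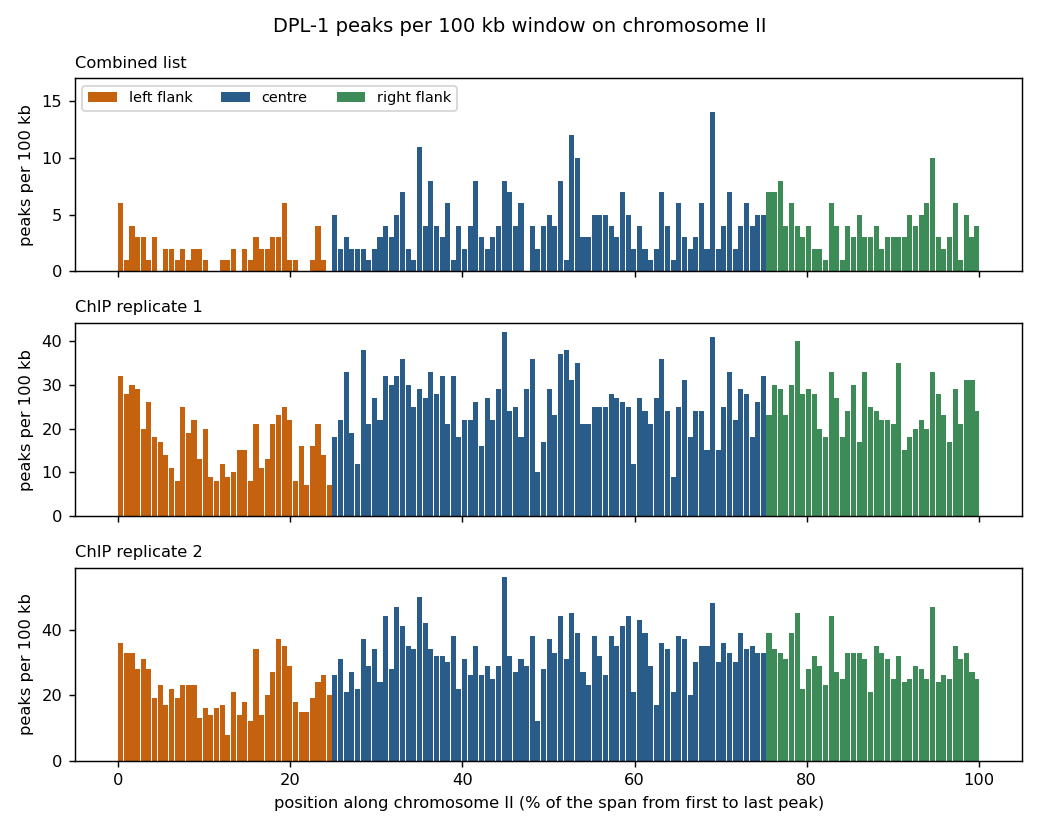
Number of peaks in each of the 153 windows of 100 kb along chromosome II, by position as a percentage of the span, for the combined list and both ChIP replicate lists; colours mark the left flank, the centre and the right flank. The mean of the left flank is low in all 3 lists, but its first windows are not low in the replicate lists. In the combined list the first 3 windows hold 6, 1 and 4 regions, against a mean of 3.56 over II. The tallest window of the combined list holds 14 regions.

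The sidedness of II was set beside that of the other chromosomes, a comparison chosen after the counts on II had been seen. The left flank held 31.4% of the flank regions on II, against 39.0% on III, 41.1% on X, 54.5% on I, 54.9% on V and 67.0% on IV. Chromosome IV was thus low on its other side in the combined list, with 154 regions on the left and 76 on the right, but not in the replicate lists, where its left flank held 47.5% in replicate 1 and 50.7% in replicate 2. II differed from IV (Fisher's exact test on the left and right counts, adjusted p = 1.7e-13 over 15 comparisons), from I (exact, adjusted p = 2.7e-07) and from V (exact, adjusted p = 1.7e-05). It could not be told from III (odds ratio 0.72, exact adjusted p = 0.096) or from X (odds ratio 0.66, exact adjusted p = 0.071) in the combined list. In replicate 1 the difference from III passed (exact adjusted p = 0.00044) and in replicate 2 it did not (exact adjusted p = 0.13), while that from X passed in both (exact adjusted p = 3.5e-08 and 4.4e-08).

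**Figure D3:**
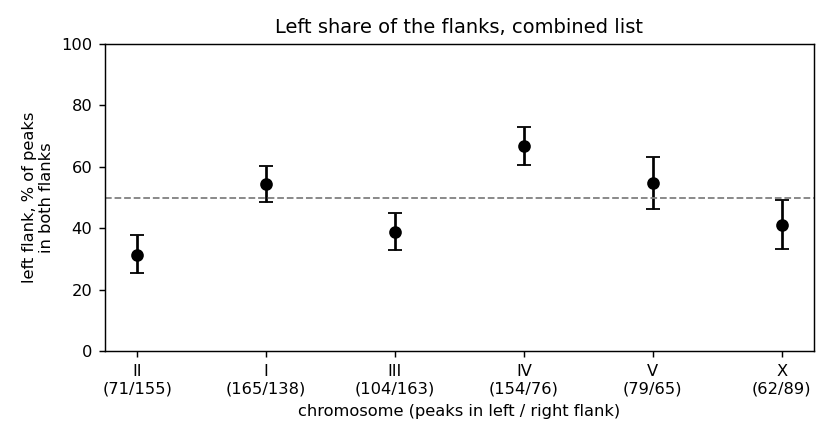
Share of the regions in both flanks that lies in the left flank, for II and the other chromosomes in the combined list; points are shares, whiskers are 95% exact binomial intervals and the dashed line is an even split. II has the lowest share, 31.4%, and IV the highest, 67.0%.

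Although regions were few on the left, those present had peak numbers and matches like the others. The authors number the peaks of each list, with number 1 the strongest. The median number was 1608 for the 71 regions of the left flank, 1618.5 for the 318 of the centre and 1361 for the 155 of the right flank, against 1598.5 over all combined regions. The middle 50% of numbers ran from 724.5 to 2370 on the left, from 868.5 to 2390.5 in the centre and from 589 to 2276 on the right, so the parts overlapped almost wholly. All 71 regions of the left flank overlapped a peak in both replicate lists, as did 313 of 318 in the centre and 153 of 155 on the right. Over all chromosomes 98.8% of combined regions did so.

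The authors' score has a ceiling, which 439 of the 544 regions reached (80.7%, exact binomial interval 77.1 to 83.9), against a background of 79.4% of all combined regions. By part, 78.9% (67.6 to 87.7) of the left regions, 80.2% (75.4 to 84.4) of the central ones and 82.6% (75.7 to 88.2) of the right ones were at the ceiling. These intervals overlap each other. The 105 regions below the ceiling were numbered 2541 to 3184 and had a median score of 2.44, where the ceiling is 3.71 in units that no header explains.

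Chromosome II held many of the very strongest regions, and so did III. Of the 100 strongest combined peaks, 26 lay on II (26%, exact binomial interval 17.7 to 35.7), against 25 on III, 20 on I, 15 on IV, 14 on V and 0 on X. The share of II was 17% (13.4 to 21.05) among numbers 101 to 500, 14.6% (11.6 to 18.0) among 501 to 1000, 17.9% (15.6 to 20.5) among 1001 to 2000 and 16.6% (14.5 to 18.8) among 2001 to 3195. Its share of the span was 15.2%, which only the interval of the 100 strongest and that of numbers 1001 to 2000 leave out. Over all numbers II held 544 of the 3192 regions. The interval of III among the 100 strongest, 16.9 to 34.7, likewise leaves out its share of the span, 13.8%. No test was made of these classes.

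The 12 strongest regions on II had combined numbers 3 to 45, and 2 of them lay in the left flank, 5 in the centre and 5 in the right flank. Number 3 lay at 10563337 to 10563700 and was number 2 in replicate 1 and 3 in replicate 2. Number 7, at 216623 to 216939 near the left end, was number 10 in replicate 1 and 7 in replicate 2. Number 8, at 4999169 to 4999501, was number 9 in replicate 1 and 11 in replicate 2. All 3 stood near the top of each list, and number 7 lies in the sparse flank.

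The next 3 regions stood among the first 30 of each replicate list. Number 14, at 9716637 to 9716955, was number 8 in replicate 1 and 30 in replicate 2. Number 18, at 4851664 to 4851994, was number 18 in replicate 1 and 16 in replicate 2. Number 20, at 15010409 to 15010739, was number 21 in replicate 1 and 29 in replicate 2. The last of these lies near the right end of the chromosome.

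Number 22, at 14059750 to 14060057, was number 14 in replicate 1 and 36 in replicate 2. Number 25, at 11874646 to 11874942, was number 35 in replicate 1 and 18 in replicate 2. Number 36, at 5389968 to 5390257, was number 39 in replicate 1 and 33 in replicate 2. Neither replicate was ahead throughout.

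Number 37, at 1320471 to 1320792, was number 46 in replicate 1 and 27 in replicate 2, and is the other strong region of the left flank. Number 40, at 12459412 to 12459724, was number 37 in replicate 1 and 48 in replicate 2. Number 45, at 13156939 to 13157232, was number 47 in replicate 1 and 45 in replicate 2. The 12 regions were 290 to 364 bp wide, and their midpoints lay at most 8 bp from that of the replicate 1 peak and at most 13.5 bp from that of the replicate 2 peak.

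Nearly every region on II was found in each replicate. Of the 544 regions, 542 shared at least 1 bp with a replicate 1 peak (99.6%, exact binomial interval 98.7 to 100.0; background 99.6% of all combined regions). In replicate 2 the count was 539 (99.1%, 97.9 to 99.7; background 99.2%). Both counts were at the background of the whole list, and because it was made from those libraries, no test was run. More than 1 replicate peak lay on 47 regions in replicate 1 (8.64%, background 9.09% of all combined regions) and on 37 in replicate 2 (6.80%, background 5.17%).

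The 7 regions absent from 1 list had high combined numbers, from 2507 to 3164. Number 2507, at 13195202 to 13195525, had no replicate 1 peak and was number 1204 in replicate 2, and it was the only one of the 7 at the score ceiling. Number 3164, at 5040057 to 5040380, also lacked a replicate 1 peak and was number 2047 in replicate 2. The other 5 had no replicate 2 peak and were numbered 1922 to 2547 in replicate 1. They were number 2846, which lay at 8962204 to 8962527, number 2866 (6122617 to 6122940), number 2960 (11975229 to 11975552), number 3000 (5605386 to 5605709) and number 3120 (4047985 to 4048106). None of the 7 was in the left flank.

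The replicates ordered the regions of II alike. Across the 537 regions found in both lists, Spearman's rho between the replicate numbers was 0.83, and it was also 0.83 across the 2618 such regions on the other chromosomes. By part, rho was 0.81 on the left (71 regions), 0.82 in the centre (313) and 0.87 on the right (153). These correlations run across regions that share 2 libraries and are given as a description. They cover only regions of the combined list, whose selection is not known and may already favour agreement. The 2 numbers lay within 2 times of each other for 467 regions (87.0%), about the same as on the other chromosomes (86.9% of 2618).

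**Figure D4:**
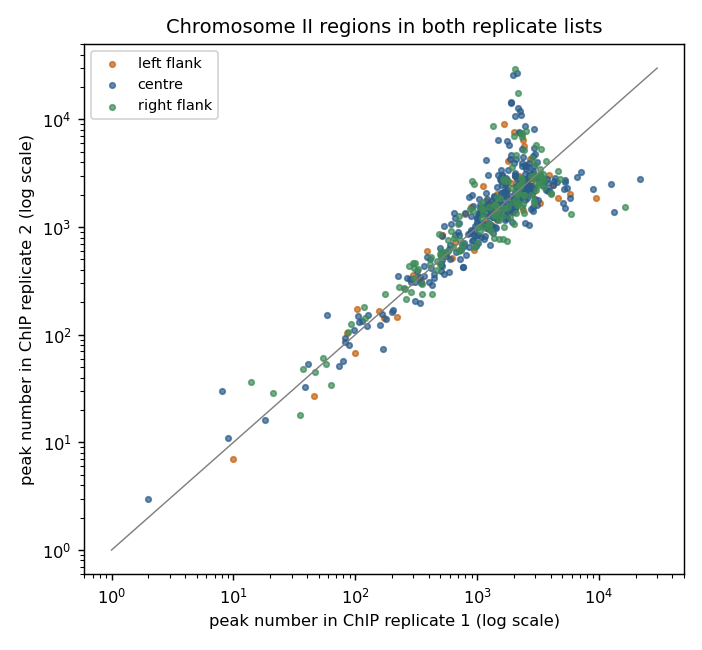
Peak number in ChIP replicate 1 (x axis) and ChIP replicate 2 (y axis), both on log scales, for the 537 regions of chromosome II found in both lists; the line marks equal numbers and colours mark the part of the chromosome. Points of all 3 colours follow the line (rho 0.83) and scatter most among weak peaks.

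The 4 largest disagreements were among regions with high combined numbers. Number 2559, at 12541666 to 12541989, was number 2027 in replicate 1 and 29722 in replicate 2. Number 2386, at 7870634 to 7870957, was number 1965 in replicate 1 and 25680 in replicate 2. Number 2629, at 10546732 to 10547055, was number 2129 in replicate 1 and 27022 in replicate 2. These 3 were far stronger in replicate 1. Number 2415, at 11567308 to 11567631, went the other way, with 16365 in replicate 1 and 1526 in replicate 2. Midpoints agreed closely all the same, with a median distance from the combined midpoint of 8 bp in replicate 1 and 10 bp in replicate 2.

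In the combined list, regions of the most common width were weaker by median number than both narrower and wider ones. A width of 324 bp was shared by 390 of the 544 regions (71.7%), whose median number was 2038. The 147 narrower regions had a median width of 203 bp and a median number of 434, and the 7 wider ones had a median number of 20. The widest was number 196, at 14251358 to 14251947, with 590 bp, and it was number 176 in replicate 1 and 241 in replicate 2. Next came number 144, at 13199674 to 13200045 with 372 bp, and number 3 with 364 bp. Number 144 was entered again as number 1193, and replicate 1 likewise held 1 interval of 363 bp at 13199682 to 13200044 as numbers 117 and 22171.

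The median spacing on II was close to that of the other chromosomes pooled, and within II it was widest in the left flank. Neighbouring midpoints lay a median of 16.7 kb apart (middle 50% from 5.29 to 38.2 kb, 543 distances), against 16.96 kb (5.36 to 39.7 kb) on the other chromosomes. Taken singly, these differed, with medians of 13.96 kb on I, 12.95 on III, 17.7 on IV, 24.9 on V and 33.2 on X. Within II the median was 30.4 kb in the left flank (middle 50% from 12.5 to 67.6 kb), 13.4 kb in the centre (4.46 to 35.5 kb) and 16.4 kb in the right flank (5.48 to 35.3 kb). No test was made, since neighbouring distances are not independent.

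**Figure D5:**
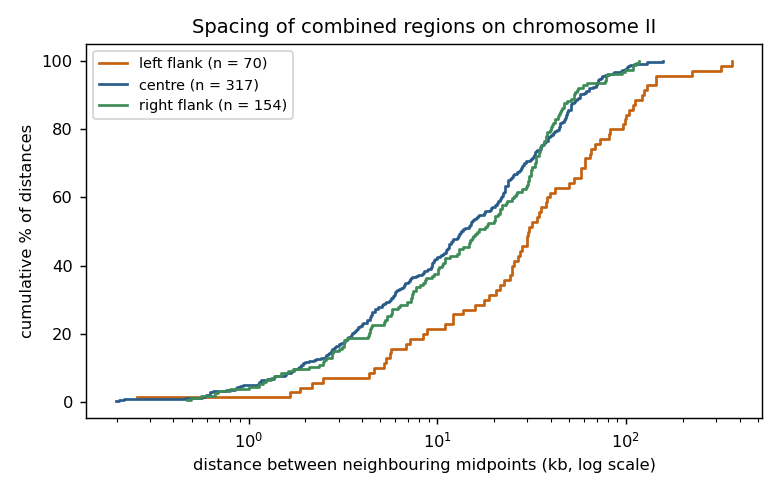
Cumulative percentage of distances between neighbouring midpoints of combined regions on chromosome II (kb, log scale), for the left flank, the centre and the right flank. The left flank lies to the right, with a median of 30.4 kb against 13.4 kb in the centre and 16.4 kb in the right flank.

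The long gaps lay mostly on the left. Of 22 stretches over 100 kb with no combined region, 11 were in the left flank, 7 in the centre and 4 in the right flank, although the centre is the longest part. Of the 5 longest, 4 were in the left flank. The longest, 363 kb from 3119314 to 3482267, held 38 replicate 1 peaks and 59 replicate 2 peaks. That was 105 peaks per Mb in replicate 1 and 163 in replicate 2, both below the means of the left flank. The strongest of them were number 2566 in replicate 1 and 3396 in replicate 2, and 4 of the replicate 1 peaks overlapped a replicate 2 peak.

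The next gaps also held replicate peaks, the strongest of them numbered 3234 to 5294. The second, 318 kb from 1502293 to 1819932, held 37 replicate 1 peaks and 45 replicate 2 peaks, the strongest numbered 3832 and 3609. The third, 222 kb from 626263 to 848575, held 34 and 38, the strongest numbered 3509 and 3770. The fourth was the only one of the 5 in the centre, 156 kb from 9416948 to 9573362, with 33 and 39 peaks, the strongest numbered 3250 and 3234. The fifth, 145 kb from 2059377 to 2204161, held 20 and 26, the strongest numbered 5200 and 5294. A gap in the combined list was thus not empty in either replicate list.

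Windows of 100 kb held 3.56 ± 2.45 combined regions (SD over 153 windows), with 1.79 ± 1.51 in the 38 windows of the left flank, 4.21 ± 2.64 in the 77 of the centre and 4.0 ± 1.97 in the 38 of the right flank. No region lay in 8 windows, 7 of them on the left and 1 in the centre. There were 10 windows with 8 or more regions, 8 of them in the centre and 2 on the right, and these 10 windows held 97 of the 544 regions.

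The densest window, from 10500564 to 10600563, held 14 combined regions, 41 replicate 1 peaks and 48 replicate 2 peaks. It included number 3, the strongest region of II, yet the median number of its regions was 1963.5. The windows from 8000564 to 8100563 and from 8100564 to 8200563 adjoin each other and held 12 and 10 regions, the strongest of them numbers 368 and 378. The window from 5300564 to 5400563 held 11 regions with number 36 among them, and that from 14400564 to 14500563 held 10, with number 56. When regions with at most 2 kb between them were counted as 1, the densest window held 7 and the others 9 or 10.

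Close neighbours made up 109 of the 544 regions (20.04%), in 49 runs with at most 2 kb between regions, against 27.1% of regions on I, 25.6% on III, 28.0% on IV, 19.96% on V and 13.2% on X. The longest run, from 10541938 to 10549151 in the densest window, held 6 regions numbered 1500, 3050, 2945, 2629, 2858 and 1022 from left to right. The closest pair was numbers 596 and 1354, with midpoints 199 bp apart at 5543381 to 5543903. Next came numbers 1267 and 3074, 205 bp apart at 7478686 to 7479214, and numbers 482 and 1453, 219.5 bp apart at 5844702 to 5845123. The regions of the first 2 pairs overlap each other, and those of the last pair have 17 bp between them. Within each pair both regions had the same strongest partner in replicate 1 (766, 1337 and 501) and in replicate 2 (422, 1230 and 454).

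Most replicate peaks on II lay outside the combined regions. In replicate 1, 584 of the 3588 peaks (16.3%) overlapped a combined region, against a background of 14% over all chromosomes. In replicate 2 the count was 571 of 4535 (12.6%), against 11%. Peaks on II overlapped the other replicate list in 1558 cases in replicate 1 (43.4%, interval 41.8 to 45.1; background 41.3%) and in 1546 cases in replicate 2 (34.1%, 32.7 to 35.5; background 33%). Of these, 982 replicate 1 peaks and 980 replicate 2 peaks overlapped no combined region, or 27.4% and 21.6% of the peaks on II, beside 27.4% and 22.1% over all chromosomes.

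The overlap between replicates was also lower on the left. In replicate 1, 34.8% (31.2 to 38.6) of the left peaks overlapped a replicate 2 peak, against 46.7% (44.4 to 48.9) of the central and 42.7% (39.5 to 45.8) of the right ones. In replicate 2 the shares were 26.5% (23.5 to 29.6) on the left, 35.9% (34.0 to 37.8) in the centre and 35.7% (33.0 to 38.5) on the right. Each list also had fewer peaks per Mb on the left, and the part of that in these shares was not tested.

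The strongest replicate peaks on II with no combined region were numbered 2243 or higher in replicate 1 and 1959 or higher in replicate 2. In replicate 1 they were number 2243 (5511731 to 5512074), number 2333 (12094961 to 12095304) and number 2380 (13640039 to 13640382). Only number 2380 overlapped a replicate 2 peak, which was number 4132. In replicate 2 they were number 1959 (6852944 to 6853227), number 1968 (1142179 to 1142462) and number 2114 (4090798 to 4091081). The first overlapped replicate 1 number 10665, the second number 11466 and the third no replicate 1 peak. Number 2243 of replicate 1 lay with its midpoint 483 bp from a combined region, number 2357, and number 2114 of replicate 2 lay 41075 bp from the nearest.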

How the data were processed

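The authors deposited peaks with coordinates of WormBase WS220, per the file headers, and the files also name SPP, a ChIP-seq peak caller, and IDR, the irreproducible discovery rate. Not given in the sources used here: aligner, thresholds, use of the inputs and selection of the combined list. The authors' score, as deposited, has an unexplained scale and a ceiling that differs between lists, so peaks were ordered by the authors' number.

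Intervals entered more than once counted once, with the lower number. A peak was placed by its midpoint, and matched when at least 1 bp was shared, taking the strongest partner. Spans run between the outermost peaks of the 3 lists. Tests were two-sided exact tests with Benjamini-Hochberg adjustment, and intervals are 95% exact intervals (Clopper-Pearson for shares). The functions were tested on simulated data. Regions named were the 12 strongest, the 3 widest, the 3 closest pairs, the longest run, the ends, the 5 densest windows, the 5 longest gaps, those absent from a list, those entered more than once and the 3 strongest unmatched peaks per replicate. The 4 regions of largest disagreement were chosen after their values were seen, as were the comparisons of centre and sides, between chromosomes, by strength and in 10 steps. The members and other tests were chosen with earlier results of these data known. Software was Python 3.11.15, numpy 2.4.6, pandas 2.3.3, scipy 1.17.1 and matplotlib 3.10.9.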

Additional observations from a re-analysis of the deposited data

How the results depend on the processing

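Of 44 alternatives to 11 results, 32 were counted as keeping the result. For the 18 tested alternatives this means the same direction and the same outcome of the test at 0.05, and 17 kept both. For the others it means a value inside the 95% interval of the value first given. For the densest window that value is its count and not its place. The excess density of II (1.14 to 1.17 times the rest) and the low left flank (28.7% to 32.5% of flank regions) passed under all 6 alternatives each. The share in the centre was 55.96% in the stronger 50% of the combined list and did not pass there (exact binomial p = 0.054), and otherwise lay between 57.2% and 59.2%. With 50% reciprocal overlap 93.0% of regions were matched in replicate 1 and 88.4% in replicate 2. With replicate lists of the combined size the shares were 90.4% and 87.3%. These settings demand more overlap or hold fewer peaks. Under reciprocal overlap a region narrower than 50% of its replicate peak cannot match, even when it lies wholly inside that peak. In the stronger 50% of the combined list both matched shares were 100%, and with the midpoint inside the replicate peak replicate 2 had 97.1%. The stronger 50% had a median spacing of 33.8 kb, since it holds fewer regions. The rank agreement was 0.78 with reciprocal overlap, 0.39 by score, which is the same for most peaks, and 0.87 in the stronger 50%. The densest window of 100 kb held 14 or 15 regions, and shifting windows by 50 kb moved it to 8050564. With windows of 50 kb the densest held 8. A replicate was left out by taking the 3195 strongest peaks of the other one in place of the combined list. The densities were then 1.15 and 1.16 times the rest, with central shares of 57.2% and 59.2%. Left shares were 30.4% and 31.8%, and median spacings 15.5 and 15.9 kb. For peak numbers the combined regions were kept and given the number of their strongest replicate peak. The medians in replicates 1 and 2 were 1467 and 1665 on the left, 1595 and 1607 in the centre and 1430 and 1360.5 on the right. Those numbers run over the longer replicate lists. No paired analysis was possible because no values of the inputs, which carry the same replicate numbers, were used. Without read depth, a stretch with no listed region is not shown to be unbound.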

Other observations

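The window of II with the most peaks in both replicate lists was not the densest one of the combined list. From 6800564 to 6900563, replicate 1 had 42 peaks and replicate 2 had 56, the highest counts on II, whose windows averaged 23.5 ± 7.71 and 29.6 ± 8.58 peaks (SD over 153 windows). The combined list had 8 regions there, none of them in its stronger 50%, and the lowest number among them was 2241. It also held the run of 4 regions from 6888173 to 6892073. The window from 7200564 to 7300563 was the only one in the centre with no combined region, and it had 29 peaks in each replicate list. Both windows were chosen after their values were seen.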
